A study of Mus musculus with 6 samples.

Results

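The insulin-like growth factor axis was described in mouse primary renal tubular epithelial cells (TECs) through 10 of the 30315 genes measured by RNA-Seq. The genes were chosen by symbol and were the ligands Igf1 and Igf2, the receptors Igf1r and Igf2r, and the binding proteins Igfbp2, Igfbp3, Igfbp4, Igfbp5, Igfbp6 and Igfbp7. All 10 were found in the table of expression values.

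TECs of C57BL/6 mice were grown to about 50% confluence and transfected with a small interfering RNA (siRNA) by means of EndoFectin Max. The siSox9 group (n = 3) received an siRNA against Sox9, a transcription factor of kidney development and repair, and the siNC group (n = 3) received the control siRNA. Both groups went through hypoxia/reoxygenation (H/R) 12 h later, with 6 h at 1.0% oxygen in medium without glucose and 18 h of reoxygenation in complete medium, so no library of cells without H/R or without siRNA was analysed here. Nothing in the sources says whether replicates came from separate cultures or animals, and p-values measure only the spread between these libraries, which may be technical.

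The ligands of this axis bind the receptor tyrosine kinase IGF1R, which signals through docking proteins, phosphoinositide 3-kinase and AKT to growth and survival. IGF2R carries no kinase and takes IGF2 and mannose-6-phosphate-tagged enzymes to lysosomes. The binding proteins hold the ligands outside the cell, lengthen or shorten their action, and are cut by secreted proteases, and in the kidney IGFBP7 is known as a urinary marker of tubular stress.

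Values are FPKM, that is reads scaled to exon length and to the reads of the library, so levels of different genes can be set side by side. Within 0.02 reads, 90.9% to 91.1% of the values above 0 in each library came back as whole reads, with scale totals of 23893194 to 25725737 reads. The siNC replicate 1 library stood apart from its group, with a mean chi-square of the reads per gene of 6.27 and 6.65 against replicates 2 and 3, where other pairs of 1 group had 1.84 to 3.52. Without it 3654 of all genes passed the test described below, against 3650 with it, and 2 genes of the axis passed (Igfbp2 and Igfbp7) against 3. Sox9 was at 8.93, 8.61 and 9.07 FPKM in siSox9 replicates 1, 2 and 3 and at 25.7, 26.5 and 25.6 FPKM in siNC replicates 1, 2 and 3. The siSox9 libraries all lay below the siNC libraries (log2 fold change -1.45, SE 0.03, limma adjusted p = 7.0e-06), as the labels have it. Of 10 tubule epithelium markers, 9 reached a mean of 1 FPKM, among them Epcam, Cdh1, Krt8 and Krt18, whereas Slc34a1, the proximal tubule phosphate transporter, was at 0 in 4 libraries and at most at 0.00895 FPKM in the other 2.

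In both groups the 10 genes spanned 4 orders of size, from Igfbp7 down to Igf2, which had a few reads per library. In the siNC libraries the mean was 557 ± 54.0 FPKM for Igfbp7, 49.1 ± 1.58 for Igfbp2, 31.8 ± 0.915 for Igf2r, 17.1 ± 0.559 for Igf1r and 3.32 ± 0.137 for Igfbp3 (SD, n = 3). The other 5 genes had means of 1.05 ± 0.0911 FPKM for Igfbp4, 0.815 ± 0.137 for Igfbp5, 0.309 ± 0.0146 for Igf1, 0.171 ± 0.0945 for Igfbp6 and 0.0405 ± 0.0214 for Igf2 (SD, n = 3). The order of the means was the same in the siSox9 libraries. Only the neighbours Igfbp4 and Igfbp5 had ranges that overlapped within a group, so their order was not settled by these libraries. Both receptors and 3 binding proteins were therefore well above both ligands in these cells.

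**Figure D1:**
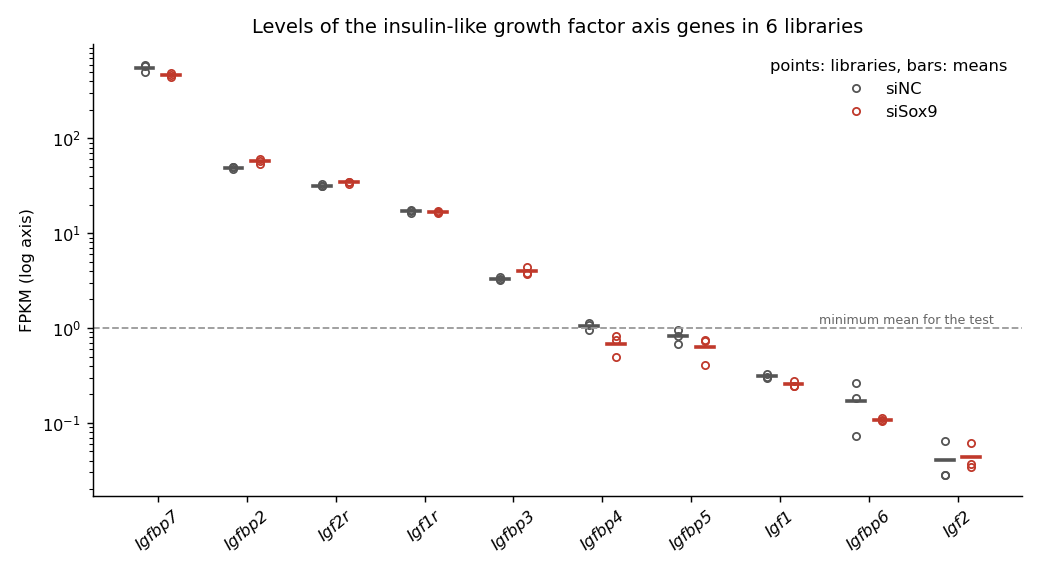
FPKM of the 10 genes on a log axis, with a point for each of the 6 libraries and a bar for each group mean (n = 3). Igfbp7 lies at 444 to 601 FPKM and Igf2 at or below 0.0651 FPKM, and the dashed line at 1 FPKM marks the lowest mean over all 6 libraries at which a gene was tested.

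Genes were tested with limma on log2(FPKM + 1) where their mean over the 6 libraries was at least 1 FPKM. This held for 5 of the 10 genes (Igfbp7, Igfbp2, Igf2r, Igf1r and Igfbp3), and the other 5 were too low. At a Benjamini-Hochberg adjusted p under 0.05, Igfbp2 and Igfbp3 were higher and Igfbp7 was lower with siSox9, and Igf1r and Igf2r did not pass. Among all 12009 genes tested 30.4% passed, with 12.8% higher and 17.6% lower with siSox9, so a call was common among genes in general. The calls over all genes were 1532 higher and 2118 lower, and 1959 higher and 1765 lower after the libraries were centred on their medians. Because 1 FPKM was added before the logarithm, fold changes of low genes come out too small, and an exact two-sided permutation test of 3 libraries against 3 cannot give a p below 0.1.

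The promoters of the 3 genes that passed are shown because Sox9 is a DNA-binding factor, together with that of Igf1, the only other printed here, since it holds a SOX core motif. The sequences are RefSeq promoters of GRCm38.p6, which run from 250 bases before to 50 bases after a start site. RefSeq held 14 promoters for the 10 genes. Capitals mark the GC box GGGCGG in Igfbp2 and Igfbp7 and the SOX core ACAAT in Igf1. Each was searched on both strands together with AACAAT, which contains the core, and the TATA box TATAAA. The Igfbp3 sequence held none of these and has no capitals. The Igfbp2 sequence is the first of 2 and lies at chr1:72824230-72824529 on the + strand, that of Igfbp3 at chr11:7213874-7214173 on the - strand, that of Igfbp7 at chr5:77407996-77408295 on the - strand and that of Igf1 at chr10:87860861-87861160 on the + strand.
Igfbp2: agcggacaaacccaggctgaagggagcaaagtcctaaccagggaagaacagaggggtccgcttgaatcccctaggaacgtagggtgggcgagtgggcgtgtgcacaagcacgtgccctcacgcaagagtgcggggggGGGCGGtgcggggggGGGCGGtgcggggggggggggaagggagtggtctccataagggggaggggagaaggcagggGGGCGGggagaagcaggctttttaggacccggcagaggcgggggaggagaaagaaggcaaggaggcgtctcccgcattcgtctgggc
Igfbp3: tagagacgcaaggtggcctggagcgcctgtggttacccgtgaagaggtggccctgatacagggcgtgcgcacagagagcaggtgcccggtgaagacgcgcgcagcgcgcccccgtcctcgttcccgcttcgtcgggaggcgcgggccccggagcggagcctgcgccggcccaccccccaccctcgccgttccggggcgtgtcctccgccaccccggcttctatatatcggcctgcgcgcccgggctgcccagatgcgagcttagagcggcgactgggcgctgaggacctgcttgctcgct
Igfbp7: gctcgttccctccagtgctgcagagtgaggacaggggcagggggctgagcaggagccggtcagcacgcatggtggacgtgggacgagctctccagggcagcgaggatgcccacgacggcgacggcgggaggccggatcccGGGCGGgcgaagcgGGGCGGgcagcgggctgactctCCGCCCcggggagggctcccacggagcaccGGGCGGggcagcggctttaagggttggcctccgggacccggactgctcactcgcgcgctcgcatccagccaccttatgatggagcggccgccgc
Igf1: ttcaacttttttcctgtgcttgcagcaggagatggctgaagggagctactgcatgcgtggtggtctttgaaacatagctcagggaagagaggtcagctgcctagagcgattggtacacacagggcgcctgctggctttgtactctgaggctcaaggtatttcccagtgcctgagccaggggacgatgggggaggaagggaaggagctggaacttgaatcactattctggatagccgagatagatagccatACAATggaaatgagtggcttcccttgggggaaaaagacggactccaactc

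The Igfbp7 window held 4 GC boxes, the first Igfbp2 window 3, and the second Igfbp2 window and the Igfbp3 window none. Of the tested genes that did not pass, Igf2r held 3 and Igf1r 2. At least 1 was held by 35.7% of 32851 promoters of this length. The ACAAT core was in none of the promoters of the 5 genes tested and in those of Igf1 and of Igf2, where 2 of 4 promoters held it, against 31% of all promoters. Only 1 promoter, the second of Igf2, held AACAAT, which 10.7% of promoters hold. TATAAA was found in the windows of Igfbp4 and Igfbp6 alone, against 13.6% of promoters. GC content was 73.3% for Igfbp7, 71.7% for Igfbp3, 67% and 57.3% for the first and second Igfbp2 promoters and 52.3% for Igf1. It was 76% for Igf1r and 70.7% for Igf2r, which did not pass, and 71.3% for Igfbp4, which was not tested. The median over all promoters was 52.7%. A match is a description of the letters, and its absence says only that the letters are not in this window.

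Ligands were scarcely detected. Igf1, the main circulating growth factor of the axis, was read at 0.247, 0.247 and 0.279 FPKM in siSox9 replicates 1 to 3 and at 0.301, 0.326 and 0.301 FPKM in siNC replicates 1 to 3. These values rest on 63, 62 and 66 reads with siSox9 and on 74, 78 and 74 reads with siNC. All siSox9 libraries lay below all siNC libraries, with a mean at 83.3% of that in siNC (exact two-sided permutation p = 0.1). Igf1 was below the limit for the test, and limma without that limit gave a log2 fold change of -0.06 (adjusted p = 0.390). On the recovered reads, limma voom gave a log2 fold change of -0.27 with a 95% interval from -0.61 to 0.08 (adjusted p = 0.241).

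Igf2, the imprinted fetal ligand, was read 5, 9 and 5 times in siSox9 replicates 1 to 3 and 4, 9 and 4 times in siNC replicates 1 to 3. The groups overlapped, and values of 0.0281 to 0.0651 FPKM were close to the 0.0211 FPKM that 3 reads make for this gene. A difference in Igf2 was not detectable at this depth. In GENCODE M21 62.8% of the exon bases of Igf2 are shared with Gm49394 on the same strand, and Gm49394 is not in the table. How reads of the shared bases were assigned is not given in the sources used here.

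Macrophages and other stromal cells are known sources of Igf1, and their markers were present in these cultures. The summed level of 7 macrophage markers was 138.6 to 155.3 FPKM with siSox9 and 135.7 to 139.0 FPKM with siNC, ranges that overlap. Of the 7, 5 had a mean of at least 1 FPKM. Of these 5, only Lyz2 passed the test and was higher with siSox9 (log2 fold change 0.21, limma adjusted p = 0.0175). Lyz2 was also the largest part of the sum, at a mean of 83.4 FPKM with siSox9 and 71.9 FPKM with siNC. The siSox9 means of Cd68 and Adgre1 were 108.3% and 109.8% of siNC, and those of C1qa and Csf1r 90.7% and 97.1%. The groups overlapped for each of these. The part of macrophages and other stromal cells in the Igf1 values was not tested, and in bulk RNA fewer cells of a type and less RNA per cell cannot be told apart.

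Among receptors, Igf1r, the signalling receptor, was at 17.1, 16.7 and 16.3 FPKM in siSox9 replicates 1 to 3 and at 17.5, 16.4 and 17.3 FPKM in siNC replicates 1 to 3. The groups overlapped. The log2 fold change was -0.03 with a 95% interval from -0.12 to 0.06 (limma adjusted p = 0.572). Igf1r had 6542 to 7391 reads per library, so its interval was not set by a low count.

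Igf2r, the scavenging and sorting receptor, was at 34.7, 34.9 and 33.3 FPKM with siSox9 and at 31.4, 31.1 and 32.9 FPKM with siNC in replicates 1 to 3. All siSox9 libraries were above all siNC libraries. The mean was 107.9% of that in siNC, and the log2 fold change of 0.11 (SE 0.03, 95% interval 0.02 to 0.19) missed the threshold (limma adjusted p = 0.0556). Igf2r passed after median-centring (adjusted p = 0.0239) and with limma voom on recovered reads (adjusted p = 0.0241). Airn, the antisense transcript of the Igf2r locus, shares no exon base with Igf2r in the annotation, and its log2 fold change was -0.11 (limma adjusted p = 0.333).

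The ratio of Igf2r to Igf1r FPKM was 2.03, 2.09 and 2.04 in siSox9 replicates 1 to 3 and 1.80, 1.89 and 1.89 in siNC replicates 1 to 3. The groups did not overlap in this ratio (difference 0.14 on the log2 scale, exact two-sided permutation p = 0.1, the lowest it can give). The ratio restates the levels of Igf2r and Igf1r and is no separate test. M6pr, the other mannose-6-phosphate receptor, passed as higher with siSox9, at 70.1 ± 1.50 FPKM against 62.7 ± 1.90 FPKM (SD, n = 3, limma log2 fold change 0.16, adjusted p = 0.0122). Without siSox9 replicate 2 its adjusted p was 0.0511.

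Igfbp7, a secreted protein with low affinity for the ligands, was the most abundant of the 10 transcripts. It was at 488, 465 and 444 FPKM in siSox9 replicates 1 to 3 and at 497, 574 and 601 FPKM in siNC replicates 1 to 3. The siSox9 libraries were all lower, although siSox9 replicate 1 and siNC replicate 1 differed by less than the range within either group. Igfbp7 fell by 0.25 on the log2 scale (SE 0.07, 95% interval -0.43 to -0.08, limma adjusted p = 0.0363), to 83.6% of the siNC mean. The call was lost after median-centring (adjusted p = 0.0525), after quantile normalization (0.0944), with no filter on low genes (0.136) and without the trend in limma (0.0507).

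It was also lost for Igfbp7 when any library but siNC replicate 1 was left out. The adjusted p was 0.0551, 0.0967 and 0.105 without siSox9 replicates 1, 2 and 3, and 0.101 and 0.106 without siNC replicates 2 and 3. Without siNC replicate 1, the lowest of its group, the log2 fold change was -0.33 (limma adjusted p = 0.00355). With 12821 to 18046 reads per library, counting error added little to this spread. On the opposite strand Polr2b overlaps 85 of the exon bases of Igfbp7, or 7.03%, and with strandedness not given in the sources used here reads there may belong to either gene. Polr2b itself was at a mean of 21.6 FPKM over the 6 libraries, and its log2 fold change was -0.05 (limma adjusted p = 0.268).

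Igfbp2, which binds both ligands and prefers Igf2, was the second most abundant. It was at 60.1, 57.5 and 53.4 FPKM with siSox9 and at 50.4, 47.4 and 49.7 FPKM with siNC in replicates 1 to 3. The groups did not overlap, and the siSox9 libraries were all higher. Igfbp2 rose by 0.21 on the log2 scale (SE 0.05, 95% interval 0.10 to 0.32, limma adjusted p = 0.0168), to 116% of the siNC mean. It passed in 11 of 15 alternatives, and the adjusted p was 0.0519 without siSox9 replicate 1, 0.0615 without siSox9 replicate 2, 0.0537 without siNC replicate 2 and 0.0532 with no filter on low genes.

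Igfbp5 lies 5457 bases from Igfbp2 on the opposite strand of chromosome 1, and the pair differed widely in level. Igfbp5, which binds to matrix and is cut by secreted proteases, was at 0.751, 0.721 and 0.411 FPKM with siSox9 and at 0.818, 0.951 and 0.677 FPKM with siNC in replicates 1 to 3. The groups overlapped, and siSox9 replicate 3 was the lowest with 59 reads. On the recovered reads the log2 fold change of Igfbp5 was -0.40 (limma voom adjusted p = 0.134), and it was below the limit for the FPKM test.

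Igfbp3, the main carrier of the ligands in serum, was at 4.45, 3.72 and 3.84 FPKM with siSox9 and at 3.29, 3.20 and 3.47 FPKM with siNC in replicates 1 to 3. The siSox9 libraries were all higher, replicate 1 by the most. Igfbp3 rose by 0.21 on the log2 scale (SE 0.06, 95% interval 0.06 to 0.36, limma adjusted p = 0.0459), to 120% of the siNC mean, from 242 to 358 reads per library. The call was at the edge of the threshold and was lost when any 1 of the 6 libraries was left out, with adjusted p of 0.106, 0.0522 and 0.0721 without siSox9 replicates 1, 2 and 3 and of 0.0885, 0.119 and 0.0727 without siNC replicates 1, 2 and 3.

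Igfbp4, which holds back the ligands until the protease PAPP-A cuts it, had the largest relative difference of the 10 among genes with at least 10 reads per library. It was at 0.739, 0.499 and 0.815 FPKM with siSox9 and at 0.949, 1.13 and 1.08 FPKM with siNC in replicates 1 to 3, that is 56 to 86 reads against 104 to 120 reads. No siSox9 library reached the lowest siNC library, and the mean was 65.2% of that in siNC (exact two-sided permutation p = 0.1). Its mean over all libraries of 0.867 FPKM kept it out of the FPKM test. Without that limit limma gave a log2 fold change of -0.29 (adjusted p = 0.133), in a fit where 9.6% of 28122 genes passed. With limma voom on recovered reads, where 30.5% of 13545 genes passed, Igfbp4 was lower by a log2 fold change of -0.65 (95% interval -1.01 to -0.28, adjusted p = 0.00858).

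Igfbp6, which prefers Igf2 as its ligand, was read 3, 3 and 3 times with siSox9 and 2, 7 and 5 times with siNC in replicates 1 to 3. The groups overlapped and the values of 0.0724 to 0.261 FPKM lay around the 0.109 FPKM that 3 reads make for this short transcript, so no difference was detectable at this depth.

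**Figure D2:**
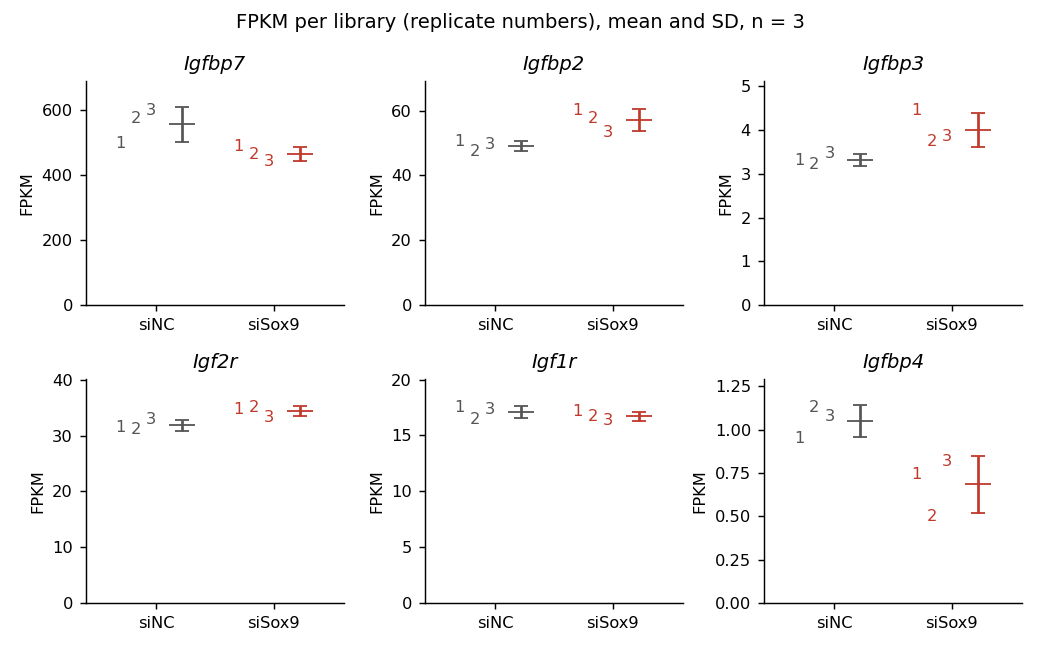
FPKM per library for 6 of the genes, on linear axes from 0, with replicate numbers as points and the mean with its SD beside them (n = 3 per group). Igfbp7 and Igfbp4 lie lower and Igfbp2, Igfbp3 and Igf2r higher in every siSox9 library, whereas the groups overlap for Igf1r.

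The groups did not overlap for 6 of the 10 genes (Igfbp7, Igfbp2, Igf2r, Igfbp3, Igfbp4 and Igf1). The same was true of 46.3% of the 12009 genes tested, and 4 of the 5 tested genes of the axis were among them. Limma voom on recovered reads could be run on 8 of the 10 genes, those with a mean of at least 10 reads, and 5 passed (Igf2r, Igfbp2 and Igfbp3 as higher, Igfbp4 and Igfbp7 as lower). In that fit 30.5% of 13545 genes passed. Limma with no filter could be run on all 10 and none passed, although 5 had an unadjusted p under 0.05. In the fit with no filter 9.6% of 28122 genes passed.

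**Figure D3:**
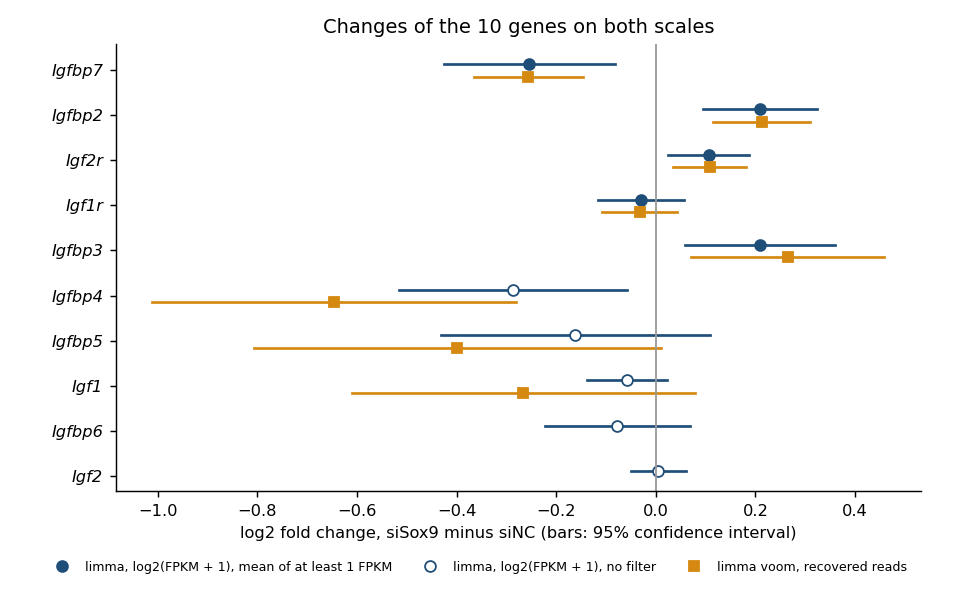
Log2 fold change of the 10 genes, siSox9 minus siNC, with 95% confidence intervals, from limma on log2(FPKM + 1) (circles, open where the mean was under 1 FPKM) and from limma voom on recovered reads (squares, 8 genes). The values of Igfbp7, Igfbp2, Igf2r and Igf1r lie close on both scales, and that of Igfbp4 is -0.29 on log2(FPKM + 1) and -0.65 on recovered reads.

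Igfbp7 made 88.1%, 88.1% and 88.3% of the summed FPKM of the 6 binding proteins in siSox9 replicates 1 to 3 and 90.0%, 91.6% and 91.6% in siNC replicates 1 to 3. The ratio of Igfbp7 to Igfbp2 FPKM was 8.12, 8.09 and 8.31 with siSox9 and 9.87, 12.1 and 12.1 with siNC. The groups did not overlap in the share or in the ratio, which restate the calls of Igfbp7 and Igfbp2 and are no separate test. Without Igfbp7 the summed level of the binding proteins was 58.6 to 66.1 FPKM with siSox9 and 52.9 to 55.5 FPKM with siNC, and nearly all of it was Igfbp2.

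Igfbp7, Igfbp4 and Igfbp5 are also known from endothelial and stromal cells, and some markers of these cells were lower with siSox9. The summed level of 6 endothelial markers was 3.54 to 3.83 FPKM with siSox9 and 4.03 to 5.21 FPKM with siNC, ranges that do not overlap, with only Cdh5 at a mean of at least 1 FPKM, while Kdr and Tek had siSox9 means of 121.9% and 137.6% of siNC with overlapping groups. The summed level of 8 fibroblast markers was 660.1 to 713.5 FPKM with siSox9 and 711.2 to 750.0 FPKM with siNC, ranges that overlap. Acta2 made nearly all of this sum, and Dcn, a defining fibroblast gene, was at 0 in 3 libraries. The summed level of 4 podocyte markers was 3.44 to 3.81 FPKM against 3.83 to 4.28 FPKM, with Nphs1 at 0 in all libraries. The summed level of the 10 tubule epithelium markers was 3816 to 3971 FPKM with siSox9 and 3654 to 3854 FPKM with siNC, most of it Krt8 and Krt18, and Cdh16 alone passed on FPKM, as higher (log2 fold change 0.36, limma adjusted p = 0.000307). On FPKM, limma could be run on 1 endothelial, 2 fibroblast and 1 podocyte marker, and none passed. With limma voom on recovered reads, the test in which Igfbp4 passed, 30.5% of 13545 genes passed in either direction. In that test 1 of 6 endothelial markers was lower (Emcn, log2 fold change -0.70, voom adjusted p = 0.000616) and 3 of 6 fibroblast markers were lower. These were Thy1 (-0.76, voom adjusted p = 0.0366), Col3a1 (-0.49, 0.0479) and Col1a1 (-0.23, 0.0252), and none of 2 podocyte markers passed. Of 6 tubule epithelium markers in that test, 2 were higher and 1 was lower. These were Cdh16 (0.36, voom adjusted p = 1.4e-07), Lrp2 (0.17, 0.0336) and, as lower, Pax2 (-0.19, 0.0229). The part of endothelial and stromal cells in the values of Igfbp4, Igfbp5 and Igfbp7 was not tested.

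The 3 genes whose log2(FPKM + 1) followed that of Igfbp7 most closely over the 6 libraries were Gm29237 (Pearson's r 0.998), Map2k2 (0.996), a kinase of the MAPK cascade, and Lmo1 (0.995), a LIM-only transcriptional cofactor. With only 6 libraries in 2 groups, 92 genes had an r above 0.95, and all points share the contrast between the groups. Over the same libraries r between Igfbp7 and Igfbp2 was -0.67, and that between Igfbp7 and Igf1r was 0.33. Igfbp7 was the most abundant of the 10 genes, and on log2(FPKM + 1) as reported it also had the largest change past the threshold. With a pseudocount of 0.1 that was Igfbp3 (0.258 against -0.255) and with limma voom Igfbp4 (-0.65). With values rescaled to TPM it was Igfbp2 (0.238 against -0.225). After median-centring it was Igfbp2 (0.236) and after quantile normalization Igfbp3 (0.262). Igfbp7 did not pass in either of these, nor with the replicate block or without the trend.

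**Figure D4:**
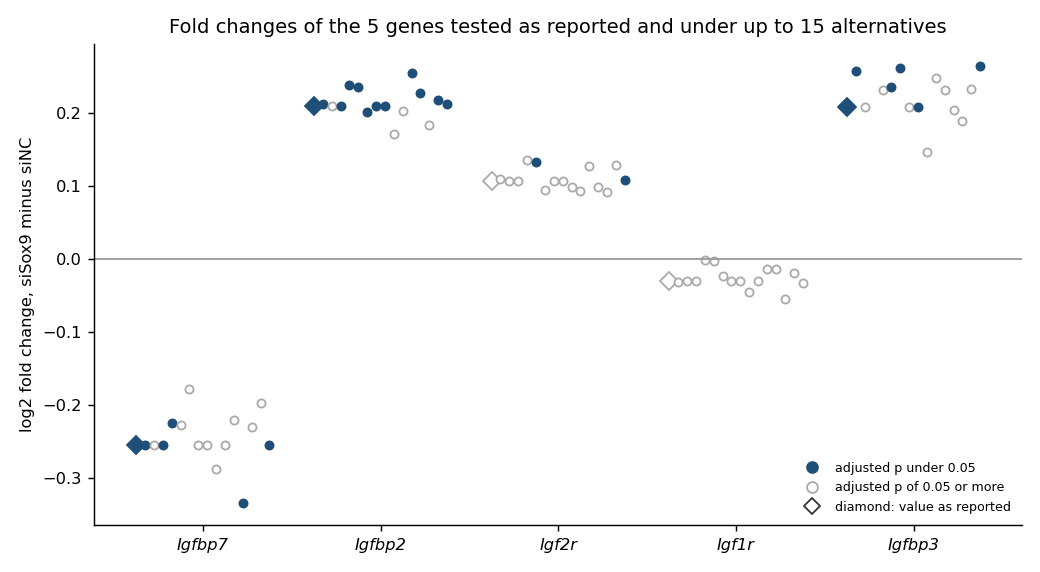
Log2 fold change of the 5 tested genes, siSox9 minus siNC, as reported (diamonds) and under up to 15 alternatives (circles), filled where the adjusted p was under 0.05. Every gene keeps its sign, though no filter, the higher minimum, the replicate block and no trend cannot change the value. Igfbp2 passes in 11 of 15 alternatives, Igfbp7 in 5 of 15, Igfbp3 in 5 of 14, Igf2r in 2 of 15 and Igf1r in none of 15.

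Around these genes, a list of 53 other genes of the pathway was read in the same fit, of which 51 were in the table and 42 could be tested. With siSox9, 6 were higher, 11 were lower and 25 did not pass, so 40.5% passed against 30.4% of all genes tested. The median log2 fold change was -0.03 over the list and -0.01 over all genes tested. Ins1 and Ins2, the insulin genes, were not in the table.

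Of 8 extracellular partners 3 could be tested, and 1 was higher and 1 was lower, where 30.4% of all genes tested passed. Htra1, a secreted serine protease that cuts binding proteins, was at 45.5, 47.9 and 47.9 FPKM with siSox9 and at 34.3, 36.4 and 36.3 FPKM with siNC in replicates 1 to 3. Among the tested genes of the list it had the largest rise on log2(FPKM + 1) (log2 fold change 0.39, SE 0.04, limma adjusted p = 0.000476), and its libraries did not overlap. Pappa, the gene of the protease PAPP-A, was at 1.11 ± 0.0931 FPKM with siSox9 and 1.52 ± 0.0674 FPKM with siNC (SD, n = 3, limma log2 fold change -0.26, adjusted p = 0.0257). The call of Pappa was lost when any library but siSox9 replicate 1 was left out, with adjusted p of 0.0584 to 0.0728. Stc2, an inhibitor of PAPP-A, did not pass (log2 fold change -0.03, adjusted p = 0.814). Igfbp1 and Igfals, a binding protein and the acid-labile subunit of the serum complex, were at most at 0.0981 FPKM. Stc1, another inhibitor of PAPP-A, was too low for the FPKM test, and its larger log2 fold change on recovered reads (0.64, against 0.40 for Htra1) did not pass (limma voom adjusted p = 0.106).

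Of the related receptors 5 could be tested, and M6pr and Lrp1 were higher and Insr was lower, where 30.4% of all genes tested passed. Lrp1, an endocytic receptor that also takes up Igfbp3, was at 9.45 ± 0.336 FPKM with siSox9 and 7.97 ± 0.287 FPKM with siNC (SD, n = 3, limma log2 fold change 0.22, adjusted p = 0.00742). Insr, the insulin receptor, which forms hybrids with IGF1R, was at 3.94 ± 0.0673 FPKM with siSox9 and 4.39 ± 0.0718 FPKM with siNC (SD, n = 3, limma log2 fold change -0.12, adjusted p = 0.0475). The call of Insr was lost when any 1 of the 6 libraries was left out, with adjusted p of 0.0838 to 0.136. Of the genes of Igf2 RNA binding, Igf2bp2 was lower at 7.90 ± 0.300 FPKM against 10.1 ± 0.207 FPKM (SD, n = 3, limma log2 fold change -0.32, adjusted p = 0.00128), and Igf2bp1 did not pass (0.00, adjusted p = 0.965).

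Of 33 signalling genes 32 could be tested, and 3 were higher, 8 were lower and 21 did not pass. So 34.4% passed, near the 30.4% of all genes tested. Akt2, one of the AKT kinases, was lower (log2 fold change -0.19, limma adjusted p = 0.0402), but not when any library other than siNC replicate 2 was left out (adjusted p of 0.0514 to 0.121). Akt1 did not pass (log2 fold change -0.02, adjusted p = 0.610).

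Irs1, the docking protein that links IGF1R to phosphoinositide 3-kinase, was at 2.02, 1.76 and 1.87 FPKM with siSox9 and at 2.75, 2.69 and 2.65 FPKM with siNC in replicates 1 to 3. The groups lay well apart (log2 fold change -0.36, SE 0.06, limma adjusted p = 0.00333). Its relative Irs2 did not pass (log2 fold change -0.04, adjusted p = 0.627). Grb14, an adaptor that restrains insulin receptor signalling, was at 3.17 ± 0.151 FPKM with siSox9 and 4.47 ± 0.291 FPKM with siNC (SD, n = 3, limma log2 fold change -0.39, adjusted p = 0.00238).

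Foxo1, a transcription factor held out of the nucleus by AKT, was at 5.89 ± 0.301 FPKM with siSox9 and 5.11 ± 0.330 FPKM with siNC (SD, n = 3, limma log2 fold change 0.17, adjusted p = 0.0482). It passed in 6 of 15 alternatives, and it was lost when any library but siNC replicate 1 was left out. Its adjusted p without one of those was 0.0755 to 0.147. Foxo3, of the same family, was lower (limma log2 fold change -0.22, adjusted p = 0.0141). Further calls were Socs2 and Pik3cb as lower and Grb10 and Nedd4 as higher, with absolute log2 fold changes of at most 0.22. Pik3cb was lost without siSox9 replicate 2 (adjusted p = 0.0506), Grb10 without replicate 2 of either group (0.0608 and 0.0805) and Nedd4 without siSox9 replicate 1 or 3 or siNC replicate 3 (0.0505 to 0.0619). With values rescaled to TPM, 5 genes of the list were higher and 4 were lower, that is 21.4% of the 42, as of all genes tested (21.4%), and Socs2, Foxo3, Akt2, Pik3cb, Insr, Pappa and Foxo1 no longer passed.

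**Figure D5:**
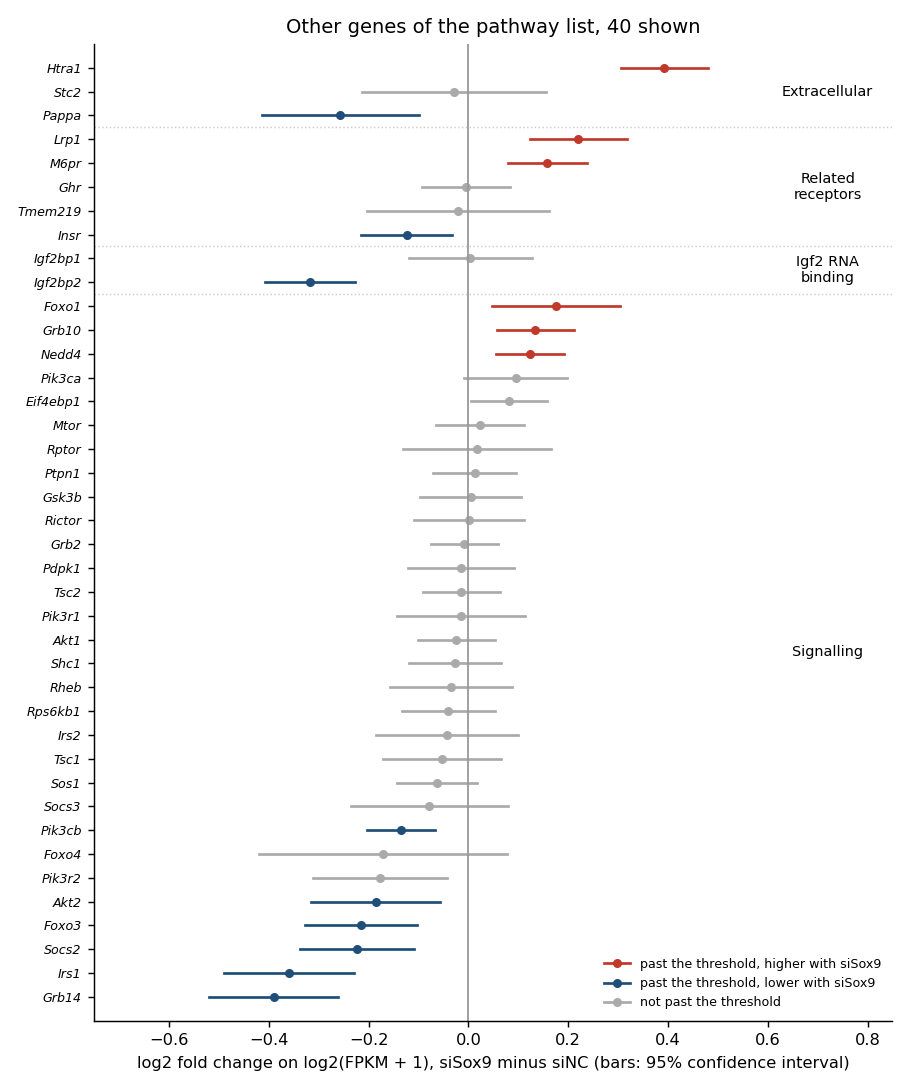
Log2 fold change on log2(FPKM + 1), siSox9 minus siNC, for 40 of the 42 tested genes of the pathway list, grouped by role, with 95% confidence intervals. Grb14 (-0.39) and Htra1 (0.39) lie at the ends, and 25 genes that did not pass are grey.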

How the data were processed

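RNA-Seq of total RNA was run on an Illumina NovaSeq. For each gene the authors deposited 1 FPKM value per library. The submitters' processing notes name HISAT2 2.1.0, Bowtie2 2.2.3, TopHat2 and the build mm9. The positions in the table match GRCm38 instead (GENCODE M21, 93.3% of 30246 matched genes and all 10 of the axis), so the counting annotation is uncertain. The siSox9 columns are headed by an siRNA other than the control, and the labels name no further siRNA than siSox9. Whole reads were recovered with exon lengths of GENCODE M21 for 27933 genes. For Igf2r the annotated length of 9308 bases gave no whole reads and 9438 bases was used.

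Members and gene lists were chosen with earlier results of these data known. All 10 members were named, with the 4 largest rises and falls of the pathway list past the threshold, and for the most abundant member and the most changed on log2(FPKM + 1), both Igfbp7, the 3 genes most like it. Of that list, 2 genes are counted but their values are not reported here. Other genes of it were named after their values were seen. The test was limma 3.58.1 under R 4.3.3 (lmFit, then eBayes with trend) of log2(FPKM + 1) for genes whose mean reached 1 FPKM, with Benjamini-Hochberg adjustment over all genes tested and no replicate block. Alternatives were a pseudocount of 0.1, no filter, a higher minimum (5 FPKM), TPM, median-centring, quantile normalization, the block, no trend and leaving out each replicate in turn. Limma voom on recovered reads with a mean of at least 10 was added after the data were seen. The scripts were tested on simulated data. Between replicates of 1 group the mean chi-square of the reads per gene was 1.84 to 6.65 (the highest values with siNC replicate 1), above the 1 of pure sampling, so no library was a copy. Depth sets the precision of the low genes, and the limit of 3 reads covers counting error only. Promoters came from RefSeq tables of GRCm38.p6. Tables and plots were made in Python 3.11.15 with numpy 2.4.6, pandas 2.3.3 and matplotlib 3.10.9.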

Additional observations from a re-analysis of the deposited data

How the results depend on the processing

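Sox9 stayed lower and past the threshold in all 15 alternatives. Each of the 10 genes kept its sign in every alternative that could be run on it, but not every alternative could change a sign. No filter, the minimum of 5 FPKM, the replicate block and no trend leave the fold change on log2(FPKM + 1) as it is. For Igf2 and Igfbp6 no filter was the only alternative, so their signs were not tested. For Igf1, Igfbp4 and Igfbp5 only limma voom could have changed the sign. The number of the 10 genes past the threshold was 3 of 5 tested as reported and changed between alternatives. It was 0 of 10 with limma and no filter (5 at an unadjusted p under 0.05), where 9.6% of all genes run passed. With limma voom on recovered reads it was 5 of 8, where 30.5% of all genes run passed. It ranged from 0 to 2 when a replicate was left out, where 20.2% to 30.4% of all genes tested passed. It was 0 without siSox9 replicate 1, siSox9 replicate 2 or siNC replicate 2, where 3 had an unadjusted p under 0.05 in limma. After median-centring 3 were higher (Igf2r, Igfbp2 and Igfbp3) and none was lower, while after quantile normalization Igfbp2 and Igfbp3 passed as higher. In TPM Igfbp2 passed as higher and Igfbp7 as lower, and Igfbp3 had an adjusted p of 0.0539. Of all genes tested, 31.0% passed after median-centring, 30.1% after quantile normalization and 21.4% in TPM.

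The pathway list had 9 genes past the threshold in TPM, 5 higher and 4 lower, which is 21.4% of its tested genes and the same as the 21.4% of all genes (2571), and 10 to 14 when a replicate was left out, against 17 as reported. It fell to 10 without siSox9 replicate 2 and to 11 without siNC replicate 3. Over all genes 2424 to 3654 passed when a replicate was left out, the lowest without siSox9 replicate 2, against 3650 as reported. The cause of these shifts was not tested.

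Same-numbered libraries did not deviate together (correlations of -0.05 to 0.06, and 2 of 6 libraries correlated best with their own number), so the numbers were not taken as pairs. With the replicate block 3262 genes passed, or 27.2% of all genes tested, among them 14 of the pathway list and 1 of the 10 genes (Igfbp2). The adjusted p in limma was then 0.0607 for Igfbp3 and 0.0703 for Igfbp7. Depth limits Igf2 and Igfbp6, with 2 to 9 reads per library.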

Other observations

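Within 100 kb of the 10 genes, or overlapping them, lay 40 other genes of the table, of which 16 could be tested, and 2 were higher and 3 lower with siSox9, a share near the 30.4% of all genes tested. Top2a, a topoisomerase of dividing cells, lies 17054 bases from Igfbp4 and had a log2 fold change of -0.71 (limma adjusted p = 0.000157). Adcy1, an adenylate cyclase, lies 27579 bases from Igfbp3 and had a log2 fold change of -0.56 (limma adjusted p = 0.000327), opposite in sign to that of Igfbp3. Near Igfbp6, Tns2 was lower and Eif4b and Zfp740 were higher. Igfbp1 lies 3539 bases from Igfbp3 and was at no more than 0.0274 FPKM in any library. H19, the imprinted neighbour of Igf2 at 72622 bases, was at a mean of 0.0713 FPKM over the 6 libraries.

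Stc1, an inhibitor of PAPP-A, was under the limit for the test at 0.306, 0.338 and 0.229 FPKM in siSox9 replicates 1 to 3 and 0.134, 0.227 and 0.201 FPKM in siNC replicates 1 to 3. All siSox9 values were above all siNC values, by a margin of 0.229 against 0.227 FPKM between the nearest libraries.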
